A study of Rattus norvegicus with 15 samples.

Results

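Gene expression was compared between Odora cells given 100 µM zinc gluconate for 12 h and untreated control cells. Odora is a rat cell line that was derived from olfactory tissue, and the labels name its cell type as olfactory neuron and its state as undifferentiated in both groups. Zinc gluconate is a salt that brings zinc ions into the medium. The comparison used 6 of the 15 RNA sequencing libraries of the series, 3 libraries of each group, chosen by their labels. The series also holds cells given 100 µM for 6 or 24 h and 200 µM for 6 h, and the 3 libraries of 6 h at 100 µM were used to set the change at 12 h beside an earlier time at the same dose. The labels state no vehicle and no time for the controls, and nothing in them tells whether the 3 libraries of a group are separate cultures. A p-value here therefore rests on the spread between libraries, and that spread may be technical only. Of 16832 gene identifiers 10349 had enough counts to be tested. From the counts of changed genes 53 genes were set aside, 48 from a list of heart muscle genes and 5 by their levels in 6 h and control libraries. Of the 53, 23 were tested, and this left 10326 genes.

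Metallothioneins are small cysteine-rich proteins that bind zinc in the cytosol. Their genes are switched on by the zinc-sensing transcription factor MTF1, which binds short DNA motifs called metal response elements and also drives the gene of the zinc exporter Slc30a1. Zinc in excess binds thiol groups, and cells answer thiol stress through the transcription factor NRF2 (gene Nfe2l2), which raises genes of glutathione, thioredoxin and quinone metabolism. A further stress arm runs through the transcription factor ATF4, whose targets make, import and charge amino acids.

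Promoter sequences of genes on which the results turn are printed here from RefSeq, assembly GRCr8, each read 5′ to 3′ on the strand of its gene. The capitals in the first 3 sequences mark the core of the metal response element, TGCACNC or TGCGCNC on either strand, and those in the last 2 mark the core of the amino acid response element bound by ATF4, TGATGNAA on either strand. The stretch for Mt1 is chr19:10832976-10833225 on the minus strand, that for Mt2A chr19:10838709-10838958 on the minus strand and that for Slc30a1 chr13:106021769-106022018 on the plus strand, each the 250 bases before the annotated start. For Chac1 a stretch around the match is given, chr3:126795934-126796001 on the plus strand, and for Trib3 the bases next to the start, chr3:161275534-161275584 on the minus strand.
Mt1: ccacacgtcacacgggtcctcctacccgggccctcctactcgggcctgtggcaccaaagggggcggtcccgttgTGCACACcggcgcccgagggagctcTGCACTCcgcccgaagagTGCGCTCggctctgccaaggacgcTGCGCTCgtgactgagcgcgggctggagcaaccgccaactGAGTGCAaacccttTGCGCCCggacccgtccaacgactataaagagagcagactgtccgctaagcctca
Mt2A: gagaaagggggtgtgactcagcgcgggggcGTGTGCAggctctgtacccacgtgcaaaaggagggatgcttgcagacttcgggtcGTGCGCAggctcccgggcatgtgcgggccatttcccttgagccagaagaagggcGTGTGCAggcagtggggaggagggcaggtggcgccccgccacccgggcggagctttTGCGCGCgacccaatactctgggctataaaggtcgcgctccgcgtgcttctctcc
Slc30a1: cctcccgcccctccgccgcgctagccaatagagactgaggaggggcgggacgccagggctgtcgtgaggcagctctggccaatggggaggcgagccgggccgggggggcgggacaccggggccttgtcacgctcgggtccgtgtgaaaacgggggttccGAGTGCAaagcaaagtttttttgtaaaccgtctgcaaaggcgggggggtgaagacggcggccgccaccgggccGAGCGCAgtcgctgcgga
Chac1: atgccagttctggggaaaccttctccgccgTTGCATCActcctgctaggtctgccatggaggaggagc
Trib3: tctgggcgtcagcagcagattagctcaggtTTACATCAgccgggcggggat
The promoter of Mt1 held 6 matches to the metal response core that did not overlap, that of Mt2A 4 and that of Slc30a1 2. Among 33469 rat promoters of this length, 20.6% held at least 1 such match, 3.99% at least 2, 0.128% at least 4 and 0.0239% at least 6. The amino acid response core stood once in the promoter of Chac1 and once in that of Trib3, and 3.40% of all promoters held it. A match is a description of the letters and not a measured binding site.

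The controls held 23.7 to 28.0 M (mega) counts per library and the 12 h libraries 11.7 to 13.2 M, so the depths of these groups did not overlap. The detection floor was set at 3 counts, which at these depths is 0.107 to 0.255 CPM (counts per mega counts). Levels are given as CPM with library totals scaled by the TMM method, and since CPM takes no account of gene length, levels are compared between libraries and not between genes. Changes are log2 ratios of 12 h over control ± standard error (SE) from edgeR's quasi-likelihood test, with p-values adjusted over all 10349 genes by the Benjamini-Hochberg method.

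Transcripts of heart muscle set 4 libraries apart. The summed level of 6 genes of the heart contractile apparatus was 117, 29.4 and 118 CPM in the controls and 0.314, 0.228 and 0.511 CPM at 12 h. In the 6 h libraries it was 54.5, 0.384 and 0.414 CPM, so replicate 1 of 6 h carried these transcripts too. Replicates 1 to 3 of 6 h held 35.2, 10.3 and 12.2 M counts. The 4 libraries with heart transcripts were thus also the deepest of those fitted, and depth and heart transcripts cannot be told apart. A fit with a term for the 4 libraries is given beside the counts below. The term treats the 4 libraries alike, though their heart transcripts differed in make-up, as for Nppa and Mb below. All controls carry this term, so in it the change at 12 h rests on the contrast of replicate 1 of 6 h with replicates 2 and 3, and the median SE grew from 0.0838 to 0.146.

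At 12 h, 710 genes other than those set aside differed from control, 354 higher and 356 lower. Over all 10349 genes tested, set-aside genes included, 713 or 6.89% passed, 3.43% higher and 3.46% lower. Most changes were small: the median size among the 710 genes was 0.386 on the log2 scale, 473 were under 0.5 and 45 were at least 1, of which 23 were higher and 22 lower. With library totals left unscaled, 775 genes differed, of which 34.6% were higher in place of 49.9%, and the median log2 ratio of all genes moved from -0.01 to -0.04. The fit with the heart-transcript term called 51 genes, 32 higher and 19 lower, and 706 of the 710 genes kept their sign in it. Without replicate 1 of 12 h 263 genes differed, without replicate 2 424, without replicate 3 413 and without control replicate 1 355.

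**Figure D1:**
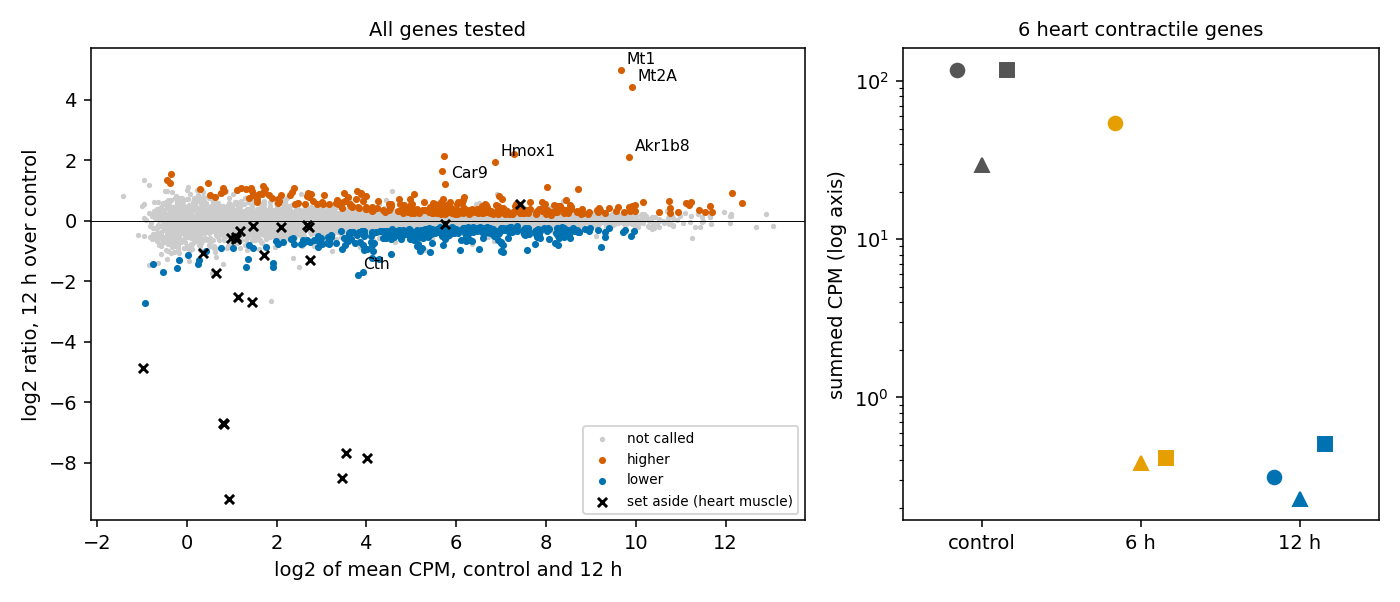
The left panel plots the log2 ratio of 12 h over control (vertical axis) against the log2 of mean CPM (horizontal axis) for the 10349 genes tested, with genes called higher or lower in colour and heart muscle genes set aside as crosses. The right panel gives the summed CPM of 6 heart contractile genes in each library on a log axis, where the 3 controls (29.4 to 118 CPM) and replicate 1 of 6 h (54.5 CPM) sit above all 12 h libraries (0.228 to 0.511 CPM).

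The metallothionein genes Mt1 and Mt2A had the highest ratios of all genes tested. Mt1 was at 53.9, 54.3 and 40.7 CPM in the controls and at 1866, 1502 and 1381 CPM after 12 h. All 12 h libraries stood far above all controls, and Mt1 rose 31.9-fold (5.00 ± 0.14, adjusted p = 7.18e-11). Mt2A, the other metallothionein tested, was at 97.3, 87.97 and 72.1 CPM in the controls and at 1982, 1895 and 1670.1 CPM at 12 h, a 21.6-fold rise (4.43 ± 0.11, adjusted p = 6.91e-13). The groups did not overlap for either gene, and control replicate 3 was the lowest of the controls for both. At 6 h Mt1 had been at 1588, 1629.8 and 1477 CPM, and its difference between 12 and 6 h did not pass (0.02 ± 0.12, adjusted p = 0.969). Mt2A had been at 1328, 1394 and 1232 CPM at 6 h and was higher at 12 h than at 6 h (0.49 ± 0.10, adjusted p = 0.0202), a call that ended without replicate 1 or 3 of 6 h or replicate 1 or 2 of 12 h. The 2 coding sequences are alike and it is not stated how reads that match both were counted, so reads may be shared between them. The level of Mtf1, the zinc sensor gene itself, overlapped between the groups, at 28.5, 26.4 and 26.2 CPM in the controls and 24.8, 28.1 and 29.3 CPM at 12 h (0.02 ± 0.08, adjusted p = 0.924).

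Of 7 zinc exporters tested 1 rose, and of 10 importers 1 rose, beside 3.43% of all genes. Slc30a1, which moves zinc out of the cell across the plasma membrane, was at 24.5, 23.1 and 26.4 CPM in the controls and at 83.7, 68.8 and 79.95 CPM at 12 h. Every 12 h library exceeded every control, and the gene rose 3.14-fold (1.65 ± 0.09, adjusted p = 2.16e-08). Its 6 h level had been 97.7 ± 10.5 CPM (SD, n = 3), and the difference between 12 and 6 h did not pass (-0.34 ± 0.09, adjusted p = 0.0759). The other 6 exporters tested, which load zinc into the secretory pathway and vesicles among other compartments, lay between -0.28 (Slc30a3) and 0.09 (Slc30a6) and did not pass. Among the importers, Slc39a13, which is known to release zinc from vesicles of the secretory pathway, was higher, with 111, 126 and 132 CPM in the controls and 149, 144 and 145 CPM at 12 h (0.24 ± 0.07, adjusted p = 0.0407). That call ended without control replicate 1 (0.18 ± 0.06, adjusted p = 0.161) or any 1 of the 12 h libraries (log2 0.18 to 0.30 over the libraries left out), and also with unscaled totals. The other 9 importers lay between -0.17 (Slc39a9) and 0.22 (Slc39a8). Mt1, Mt2A and Slc30a1 held their calls in every fit run, the one with the heart-transcript term included.

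**Figure D2:**
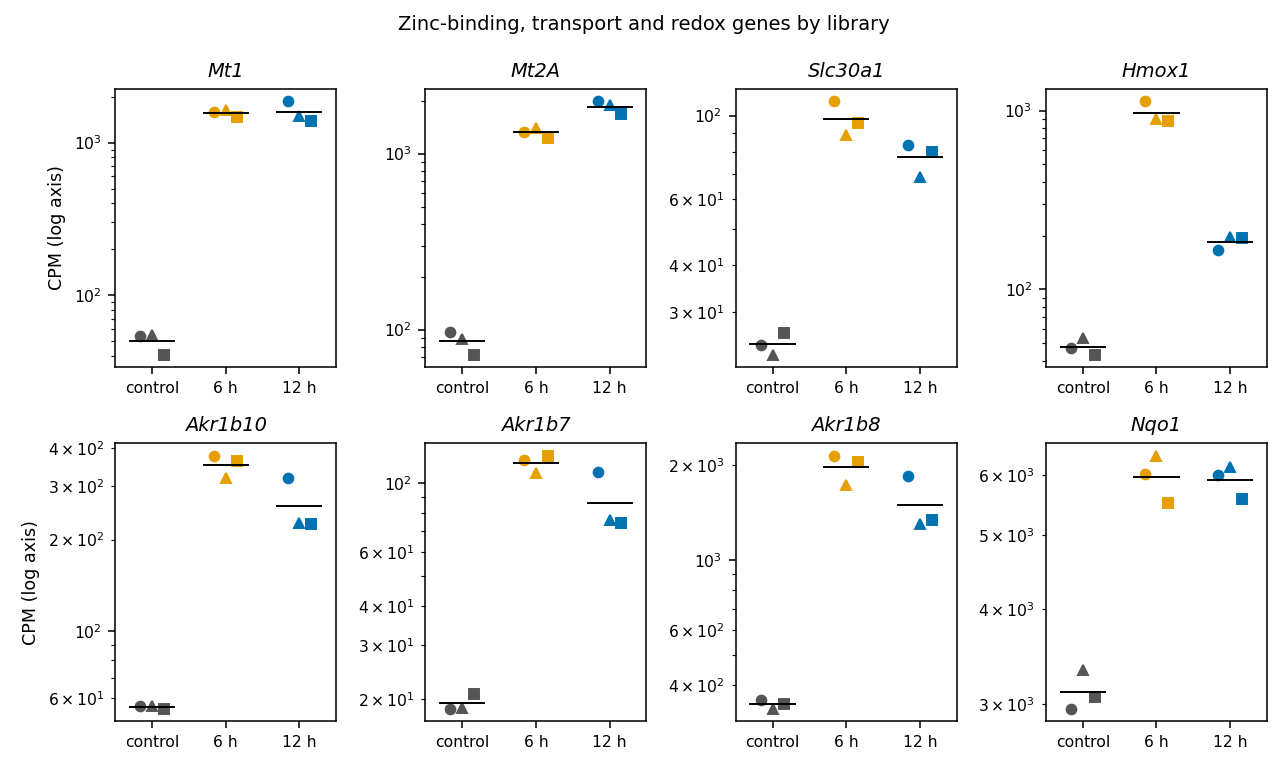
CPM of zinc and redox genes in each library, by group, on a log axis; each point is 1 library and the bar is the group mean. Mt1, Mt2A and Slc30a1 sit above control at both times, while Hmox1 sits at 166 to 196 CPM at 12 h, between the controls and the 6 h libraries.

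Genes of the NRF2 response rose in part. Of 30 tested NRF2 targets 13 rose and 3 fell, beside 3.43% and 3.46% of all genes, and their median log2 ratio was 0.30 beside -0.01 over all genes. Hmox1, which encodes haem oxygenase 1, the enzyme that breaks down haem, was at 46.9, 53.3 and 43.3 CPM in the controls and at 166, 196 and 194 CPM at 12 h. No 12 h library reached down to the controls, and Hmox1 rose 3.87-fold (1.95 ± 0.11, adjusted p = 9.72e-08). Nqo1, a quinone reductase, was at 2959, 3328 and 3065 CPM and 6003, 6144 and 5584 CPM, a 1.896-fold rise (0.92 ± 0.08, adjusted p = 2.4e-06). Gstp1, a glutathione transferase, rose from 907 ± 37.01 to 1383 ± 144 CPM (0.61 ± 0.08, adjusted p = 0.000224). Tkt, an enzyme of the pentose phosphate pathway that feeds NADPH to these reductases, rose by 0.35 ± 0.06. Gclm, the regulatory subunit of glutathione synthesis, was at 30.2, 34.4 and 39.8 CPM in the controls and 43.00, 43.05 and 42.4 CPM at 12 h and did not pass (0.30 ± 0.10, adjusted p = 0.0697), and neither did Txnrd1, thioredoxin reductase (0.14 ± 0.08, adjusted p = 0.309). Slc7a11, which imports cystine for glutathione, had a log2 ratio of -0.78 ± 0.22 that did not pass (adjusted p = 0.0747). The 3 targets that fell were Sqstm1, an autophagy receptor (-0.34 ± 0.09), Ephx1, an epoxide hydrolase (-0.61 ± 0.16), and Abcc4, an efflux pump (-0.28 ± 0.08). The number that rose was 8 without replicate 1 of 12 h and 4 with the heart-transcript term. The calls of all 3 ended without control replicate 1 and without replicate 1 of 12 h, and 1 target fell in each fit that left out replicate 2 of the controls or replicate 2 or 3 of 12 h.

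The gene of NRF2 itself, Nfe2l2, was lower at 12 h. Its level was 319.9, 265 and 259 CPM in the controls and 177, 196 and 187 CPM at 12 h, with no overlap and with control replicate 1 the highest (-0.59 ± 0.08, adjusted p = 0.000291). Nfe2l2, like Ptgr1, Spr, Narf, Gk, Pygl, Niban1 and other genes named below as chosen by their values, was picked after the values were seen. Ptgr1, a reductase that acts on prostaglandins and reactive alkenals, was at 166, 156 and 171 CPM in the controls and 396, 349 and 327 CPM at 12 h, a 2.17-fold rise (1.12 ± 0.07, adjusted p = 1.84e-07). Spr, sepiapterin reductase, which makes the cofactor tetrahydrobiopterin, rose by 0.71 ± 0.07 and Narf by 0.71 ± 0.09. For all of these, each 12 h library lay on 1 side of every control.

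Aldo-keto reductases of the 1B family, which reduce sugars and reactive aldehydes with NADPH, rose together. Of 8 tested members of the wider family 4 rose, beside 3.43% of all genes, and all 4 belong to this branch. Akr1b10 was at 56.5, 56.4 and 55.3 CPM in the controls and 319.5, 228 and 225 CPM at 12 h, a 4.59-fold rise (2.20 ± 0.12, adjusted p = 3.88e-07). Akr1b8 rose 4.302-fold, from 348 ± 10.9 to 1497 ± 302 CPM, and Akr1b7 4.45-fold, from 19.4 ± 1.25 to 86.2 ± 19.3 CPM. Akr1b1, aldose reductase, which turns glucose into sorbitol, rose 2.08-fold, from 273 ± 21.4 to 567 ± 45.1 CPM (1.06 ± 0.08, adjusted p = 8.62e-07). Replicate 1 of 12 h was the highest of its group for all 4, and no 12 h library overlapped a control. Akr1a1, Akr7a2, Akr1e2 and Kcnab2 had log2 ratios of 0.12 ± 0.07, -0.09 ± 0.12, 0.02 ± 0.19 and -0.39 ± 0.17 and missed the threshold. Since Akr1b7, Akr1b8 and Akr1b10 resemble each other closely, their reads may have been split or shared. The 4 calls held in every fit run.

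Iron storage genes rose as well. Of 17 tested genes of iron and haem handling 3 rose, beside 3.43% of all genes. They were the ferritin heavy chain Fth1, the ferritin light chain Ftl1 and the haem transporter Slc48a1. Fth1 was at 1818, 2032 and 1844 CPM in the controls and 2882, 3192 and 2715 CPM at 12 h (0.63 ± 0.08, adjusted p = 0.000224), Ftl1 rose by 0.53 ± 0.08 and Slc48a1 by 0.56 ± 0.08. The transferrin receptor Tfrc, which brings iron in, was at 278, 203 and 299.6 CPM in the controls and 456, 349 and 414 CPM at 12 h. Its groups did not overlap, yet it did not pass (0.64 ± 0.17, adjusted p = 0.0513). Ferritin genes have processed copies elsewhere in the genome, with which reads may be shared. With the heart-transcript term the 3 calls ended, with Fth1 at 0.64 ± 0.14, adjusted p = 0.075, Ftl1 at 0.60 ± 0.15, adjusted p = 0.113 and Slc48a1 at 0.42 ± 0.13, adjusted p = 0.197.

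ATF4 target genes were lower at 12 h than in the controls. Of 14 tested genes of amino acid and one-carbon synthesis 10 fell, with a median log2 ratio of -0.44. Of 11 amino acid transporters 6 fell (median -0.32), and of 22 regulators and effectors 16 fell (median -0.51), beside 3.46% of all genes and a median of -0.01. Asns, asparagine synthetase, was at 305, 223 and 229 CPM in the controls and 137, 125 and 121 CPM at 12 h, a 1.98-fold fall (-0.98 ± 0.10, adjusted p = 8.55e-05). Psph and Phgdh, enzymes of serine synthesis, changed by -0.53 ± 0.07 and -0.57 ± 0.08, and Aldh1l2, an enzyme of mitochondrial folate metabolism, by -0.71 ± 0.06, adjusted p = 6.16e-06. Cth, which makes cysteine from cystathionine, fell 3.45-fold, from 31.3, 16.7 and 17.1 CPM to 5.41, 6.92 and 6.48 CPM (-1.79 ± 0.25, adjusted p = 0.00198). No 12 h library reached a control for any of these 5 genes, and control replicate 1 was the highest control for each. Pck2, the mitochondrial form of phosphoenolpyruvate carboxykinase, chosen by its values, fell 1.75-fold (-0.81 ± 0.10, adjusted p = 0.000243).

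Among the transporters, Slc7a5 and its partner Slc3a2, which together import large neutral amino acids, changed by -0.53 ± 0.08 and -0.39 ± 0.07, and the glycine transporter Slc6a9 by -0.43 ± 0.07. Among regulators and effectors, Chac1, which degrades glutathione and whose promoter is printed above, was at 182, 143 and 159 CPM in the controls and 104, 91.04 and 91.8 CPM at 12 h (-0.75 ± 0.09, adjusted p = 0.000291). Trib3, a pseudokinase that restrains ATF4, was at 235, 159.7 and 143 CPM and 88.9, 91.5 and 78.3 CPM, a 2.07-fold fall (-1.05 ± 0.16, adjusted p = 0.00641). Every 12 h library of these genes lay under every control. Vldlr, a lipoprotein receptor induced by ATF4, fell 1.92-fold (-0.94 ± 0.08, adjusted p = 5.03e-06), the stress sensor Sesn2 changed by -0.52 ± 0.09 and Fgf21, a secreted stress hormone, by -1.41 ± 0.27. Inhbe, an activin subunit, fell from 5.705, 3.08 and 2.41 CPM to 1.26, 1.06 and 1.53 CPM (-1.53 ± 0.33, adjusted p = 0.0128), a call that ended without replicate 1 (-1.52 ± 0.40, adjusted p = 0.0586) or replicate 2 of 12 h (-1.41 ± 0.39, adjusted p = 0.0567). Atf4 itself had a log2 ratio of -0.30 ± 0.07, adjusted p = 0.0205. Ddit3, the gene of the death-linked factor CHOP (-0.54 ± 0.15, adjusted p = 0.0691), Gdf15 (-0.93 ± 0.37, adjusted p = 0.16), Ppp1r15a (-0.42 ± 0.12, adjusted p = 0.0636) and Atf3 (-0.29 ± 0.16, adjusted p = 0.326) did not pass.

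**Figure D3:**
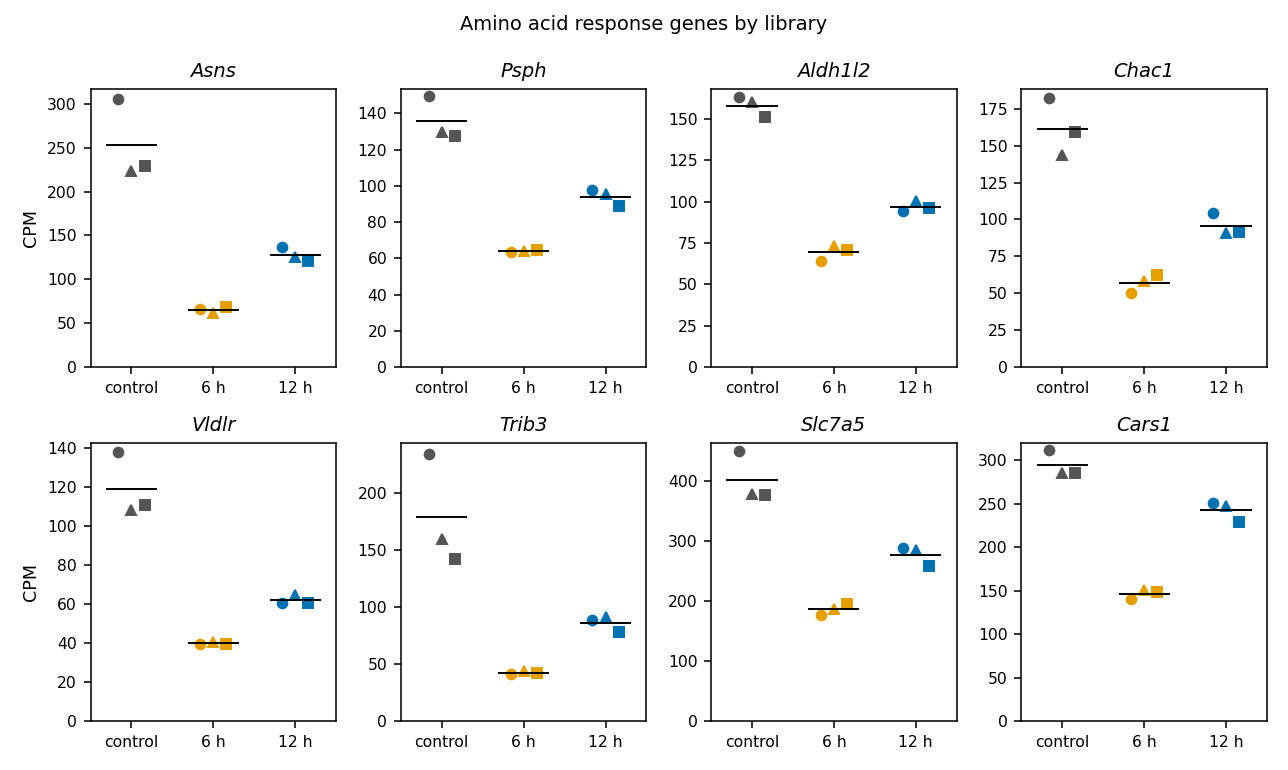
CPM of ATF4 target genes in each library, by group; each point is 1 library and the bar is the group mean. In all panels the 12 h libraries sit between the controls and the 6 h libraries, as for Asns with 121 to 137 CPM at 12 h.

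The level of ATF4 targets also differed among the controls. Control replicate 1 was the highest control for 13 of the 14 synthesis genes, 10 of the 11 transporters and 20 of the 22 regulators, against 34.3% of all genes tested. Without that library the numbers that fell were 9, 3 and 13. For transporters the number was 4 without replicate 2 or replicate 3 of 12 h. With the heart-transcript term 1 synthesis gene and 2 regulators fell, which were Aldh1l2 (-0.87 ± 0.10, adjusted p = 0.00135), Chac1 (-1.02 ± 0.16, adjusted p = 0.00977) and Vldlr (-0.96 ± 0.16, adjusted p = 0.0177), and the calls of the transporters ended, with Slc7a5 at -0.63 ± 0.14, adjusted p = 0.0691, Slc3a2 at -0.30 ± 0.14, adjusted p = 0.365 and Slc6a9 at -0.54 ± 0.13, adjusted p = 0.1. Heart transcripts were high in control replicates 1 and 3 alike, while ATF4 targets were highest in replicate 1. The part of the heart transcripts and of control replicate 1 in these falls was not tested. In bulk RNA, fewer cells of a type and less RNA per cell cannot be told apart.

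Enzymes that charge transfer RNA with amino acids, several of them ATF4 targets, were lower in part. Of 18 tested cytosolic transfer RNA synthetases 8 fell, beside 3.46% of all genes (median -0.24 beside -0.01 over all genes). Nars1 is among those that fell and is also counted in the list of regulators and effectors. Lars1, which charges leucine, was at 428, 344 and 370.3 CPM in the controls and 279, 264 and 275 CPM at 12 h (-0.48 ± 0.07, adjusted p = 0.0011), with no overlap. Eprs1, which charges glutamate and proline, changed by -0.50 ± 0.09 and Wars1, for tryptophan, by -0.51 ± 0.10. Rars1 for arginine, Kars1 for lysine and Hars1 for histidine had log2 ratios of 0.09 ± 0.08, 0.04 ± 0.07 and -0.02 ± 0.07 and did not pass. Control replicate 1 was the highest control for 17 of the 18. Leaving that library out gave 4 falls, leaving out replicate 2 of 12 h 5 and leaving out replicate 3 of 12 h 3. The calls ended under the heart-transcript term, with Lars1 at -0.48 ± 0.14, adjusted p = 0.164, Eprs1 at -0.47 ± 0.16, adjusted p = 0.251 and Wars1 at -0.63 ± 0.19, adjusted p = 0.194.

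Cholesterol synthesis genes were higher. Of 19 tested enzymes of the pathway 15 rose, beside 3.43% of all genes, and 18 had a log2 ratio above 0 (median 0.32). Mvd, which makes isopentenyl diphosphate, was at 43.1, 46.9 and 49.7 CPM in the controls and 72.4, 62.2 and 66.7 CPM at 12 h (0.53 ± 0.09, adjusted p = 0.00198). Hsd17b7, a late-step reductase, was at 7.33, 11.2 and 12.4 CPM and 17.6, 18.9 and 20.3 CPM, a 1.83-fold rise (0.87 ± 0.15, adjusted p = 0.00267). Nsdhl, a sterol dehydrogenase, rose by 0.39 ± 0.08 and Acat2, which makes the first intermediate, by 0.49 ± 0.10. Each of these 4 genes had all 12 h libraries above all controls, and replicate 1 was the lowest control for each. Srebf1, a lipogenic transcription factor gene, changed by -0.40 ± 0.07, adjusted p = 0.00366. Srebf2, whose product drives the pathway, had a log2 ratio of 0.15 ± 0.07 (adjusted p = 0.196). Of 20 genes of fatty acid synthesis 3 rose and 1 fell, beside 3.43% and 3.46% of all genes. Among those that rose was the elongase Elovl6 (0.56 ± 0.11, adjusted p = 0.00554). Dgat2 fell (-0.25 ± 0.07), a call that ended without control replicate 1 or 3 or 12 h replicate 1 or 3. In this list 5 genes rose without control replicate 3 and 1 without 12 h replicate 1. The cholesterol list had 7 calls when control replicate 1 was left out, and 4, 7 and 4 when replicate 1, 2 or 3 of 12 h was. With the heart-transcript term the calls ended, with Hsd17b7 at 0.87 ± 0.26, adjusted p = 0.194 and Mvd at 0.31 ± 0.14, adjusted p = 0.36.

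Glycolysis genes rose together. Of 21 tested genes 14 rose, beside 3.43% of all genes, with a median log2 ratio of 0.44 beside -0.01 over all genes. Pfkl, a phosphofructokinase that commits sugar to glycolysis, was at 91.8, 103 and 100.1 CPM in the controls and 180.2, 153 and 145 CPM at 12 h (0.70 ± 0.08, adjusted p = 9.77e-05). Gpi rose by 0.69 ± 0.08, and the enolase Eno1 by 0.58 ± 0.08. Ldha, which turns pyruvate into lactate, was at 1223, 1258 and 1489 CPM and 2369.5, 1977 and 1915 CPM (0.66 ± 0.10, adjusted p = 0.000824), and Gapdh at 4091, 3986 and 4559.6 CPM and 7168, 6121 and 5727 CPM (0.59 ± 0.09, adjusted p = 0.00108). No 12 h library of these genes overlapped a control, and replicate 1 was the highest 12 h library for all 14 genes that rose, against 36.4% of all genes tested. Without it 11 genes of the list rose. Over the control and 12 h libraries left out, 11 to 13 rose and 0 to 2 fell. The hexokinase Hk2, the muscle phosphofructokinase Pfkm and the regulatory enzyme Pfkfb3 had log2 ratios of -0.03 ± 0.13, 0.03 ± 0.09 and -0.33 ± 0.11 and did not pass. Pygl, which frees glucose from glycogen and was chosen by its values, rose 1.85-fold, from 23.5 ± 1.71 to 43.4 ± 4.700 CPM (0.89 ± 0.10, adjusted p = 7.76e-05). Gk, glycerol kinase, also chosen by its values, fell 1.86-fold (-0.89 ± 0.10, adjusted p = 6.21e-05).

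Genes induced by low oxygen rose in part. Of 17 tested genes 6 rose and 1 fell, beside 3.43% and 3.46% of all genes, with a median of 0.04. Car9, a carbonic anhydrase of the cell surface, was at 32.1, 30.5 and 35.6 CPM in the controls and 92.9, 65.3 and 67.2 CPM at 12 h, a 2.297-fold rise (1.20 ± 0.13, adjusted p = 0.000292), again highest in replicate 1. P4ha2, a collagen prolyl hydroxylase, rose by 0.56 ± 0.06, Higd1a, a mitochondrial protein, by 0.60 ± 0.09 and the kinase Pdk1, which slows pyruvate entry into mitochondria, by 0.55 ± 0.09. Fam162a, a mitochondrial hypoxia gene chosen by its values, rose by 0.66 ± 0.08. Vegfa, the vessel growth factor, was at 268, 193 and 188 CPM and 155, 149.5 and 159.7 CPM (-0.48 ± 0.11, adjusted p = 0.0203), and this fall ended without any 1 of the 12 h libraries (log2 -0.57 to -0.30 over the libraries left out). Hif1a, the sensor factor itself, had a log2 ratio of -0.01 ± 0.07, adjusted p = 0.976. With the heart-transcript term the number of hypoxia genes that rose was 1, and the calls of the glycolysis list ended, with Pfkl at 0.64 ± 0.14, adjusted p = 0.0777 and Ldha at 0.74 ± 0.18, adjusted p = 0.1.

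**Figure D4:**
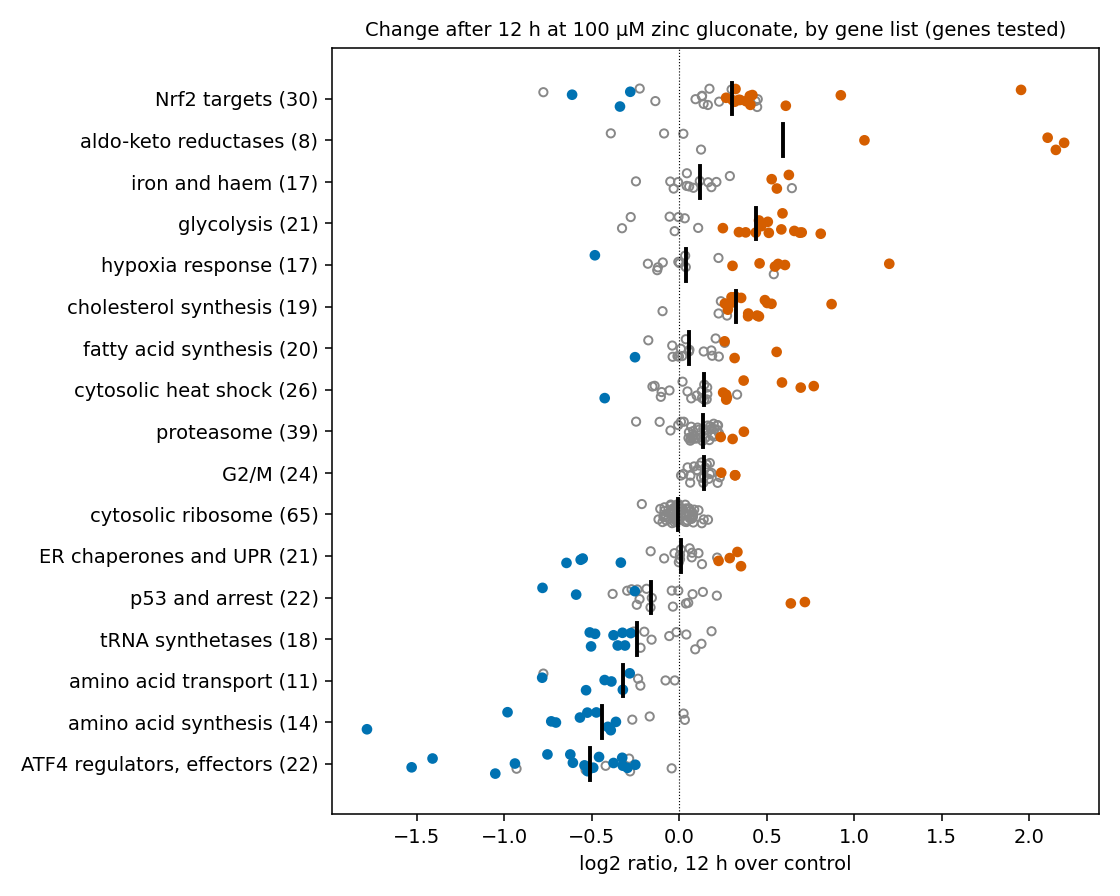
Log2 ratios of 12 h over control for each tested gene of the named lists, 1 row per list with its number of genes tested; each point is a gene and the bar is the median of the list. The medians of glycolysis (0.44) and cholesterol synthesis (0.32) lie right of 0, and those of the 3 ATF4 lists (-0.32 to -0.51) and of the transfer RNA synthetases (-0.24) lie left of it.

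Some chaperone genes rose. Of 26 tested cytosolic heat shock genes 8 rose and 1 fell, beside 3.43% and 3.46% of all genes (median 0.14). Hsph1, an Hsp110 chaperone that helps to take apart protein aggregates, was at 55.3, 50.4 and 54.99 CPM in the controls and 81.2, 93.9 and 98.6 CPM at 12 h (0.77 ± 0.08, adjusted p = 6.69e-05), and its co-chaperone class member Dnaja4 rose by 0.59 ± 0.08. Zfand2a, an arsenite-inducible zinc finger gene chosen by its values, was at 88.4, 91.8 and 91.5 CPM and 126, 169 and 179 CPM (0.80 ± 0.11, adjusted p = 0.00132). No 12 h library of these genes reached the controls. Hspa1a, the inducible Hsp70, was at 5.62, 9.68 and 7.82 CPM and 10.04, 12.2 and 15.5 CPM (0.69 ± 0.19, adjusted p = 0.0402), but the call ended without control replicate 1 or 3, 6 h replicate 1 or 12 h replicate 2 or 3 (log2 0.52 to 0.89 over the libraries left out), and a near-identical copy of the gene may share its reads. The number of heat shock genes that rose was 5 without control replicate 1, 3 without 12 h replicate 1 or 3, 4 without 12 h replicate 2 and 4 with unscaled totals, and it was 2 with the heart-transcript term. Hspa8 and Hsp90aa1, the constitutive forms, had ratios of 0.14 ± 0.07 and 0.33 ± 0.12 and did not pass.

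Hspa9, the mitochondrial Hsp70, fell from 897, 660.3 and 709 CPM to 544, 515 and 507 CPM (-0.53 ± 0.09, adjusted p = 0.00356), again with control replicate 1 highest. Among 8 subunits of the chaperonin CCT, edgeR called 0, with 0 at an unadjusted p under 0.05 and 0 called by DESeq2 and by limma-voom. Of 39 proteasome genes 3 rose and 0 fell (7.69%, beside 3.43% of all genes higher and 6.89% called either way), and 35 of the 39 had ratios above 0 (median 0.13). The number that rose was 1 without control replicate 1 or 12 h replicate 1, 5 without control replicate 3 and 10 by DESeq2. Of 21 genes of the endoplasmic reticulum 4 rose and 4 fell (38.1% called, beside 6.89% of all genes), and 2 rose without control replicate 1 or 2 or 12 h replicate 3 and 1 without 12 h replicate 1 or 2. Herpud1, a degradation factor that ATF4 also drives, fell from 170.3 ± 20.9 to 115 ± 5.67 CPM (-0.56 ± 0.09, adjusted p = 0.00198), the sensors Atf6 and Ern1 changed by -0.64 ± 0.10 and -0.55 ± 0.09, and Creld2, a secreted chaperone, rose by 0.33 ± 0.06. Hspa5, the main chaperone of this compartment, was at 781, 668 and 697 CPM in the controls and 719, 699 and 733 CPM at 12 h (0.00 ± 0.07, adjusted p = 0.982), and its groups overlapped. Among 65 cytosolic ribosomal protein genes edgeR called 0, with 2 at an unadjusted p under 0.05, 1 called by DESeq2 and 0 by limma-voom.

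Of 22 genes of p53 targets and arrest 2 rose and 3 fell (22.7% called, beside 6.89% of all genes), while 1 fell without control replicate 1 or 12 h replicate 2 or 3, and the falls ended without 12 h replicate 1. Gadd45g and Gadd45b, stress-induced sensors, rose by 0.72 ± 0.11 and 0.64 ± 0.12, while Gadd45a, their family member, was at 371, 216 and 234 CPM in the controls and 169, 157 and 151 CPM at 12 h (-0.78 ± 0.19, adjusted p = 0.0484), with control replicate 1 far above the other two. The call of Gadd45a ended without any 1 of the 12 h libraries and without 6 h replicate 1 (log2 -0.93 to -0.50 over the libraries left out). Cdkn1a, the p21 inhibitor, was at 171, 117 and 132 CPM and 134, 116 and 119 CPM (-0.19 ± 0.12, adjusted p = 0.386), with overlap. Of 23 apoptosis genes 2 fell and 0 rose (8.70%, beside 3.46% of all genes lower and 6.89% called either way). Those that fell were the inflammatory caspase Casp4 and the related Casp12. Casp4 fell 3.26-fold, from 32.5, 18.6 and 19.2 CPM to 5.81, 9.13 and 6.48 CPM (-1.70 ± 0.23, adjusted p = 0.00198), and Casp12 by -0.96 ± 0.19, the latter lost without 12 h replicate 1 (-0.82 ± 0.20, adjusted p = 0.0511). Of 24 genes of G2 and mitosis 3 rose (12.5%, beside 3.43% of all genes), while 1 rose without control replicate 1 or 12 h replicate 2 and the calls ended without 12 h replicate 1. Among the 3 was the kinase Aurka (0.32 ± 0.07, adjusted p = 0.00876), a call that ended without 12 h replicate 1 (0.25 ± 0.07, adjusted p = 0.0674), and the proliferation marker Mki67 had a log2 ratio of 0.14 ± 0.07, adjusted p = 0.232.

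Of 29 immediate early genes 2 rose and 2 fell (13.8% called, beside 6.89% of all genes). The number that rose was 1 without control replicate 1 or 12 h replicate 1 or 2, and the number that fell was 4 without control replicate 3 and 1 without 12 h replicate 3, while the falls ended without 12 h replicate 1. Dusp5, a phosphatase that switches off ERK, was at 35.5, 35.3 and 37.1 CPM in the controls and 54.1, 44.6 and 49.5 CPM at 12 h (0.46 ± 0.08, adjusted p = 0.00437). Fos was at 9.99, 11.95 and 7.78 CPM and 8.55, 9.58 and 10.99 CPM, with overlap (-0.03 ± 0.15, adjusted p = 0.924), and its sign turned with the heart-transcript term, without control replicate 2 and without 12 h replicate 1. Id3, an inhibitor of differentiation factors chosen by its values, rose by 0.60 ± 0.08. Of 14 genes of NF-kB and inflammation 2 rose and 1 fell (21.4% called, beside 6.89% of all genes). The number that rose was 1 without control replicate 1 or 3 or 12 h replicate 1 or 3. The gene that fell was Icam1, an adhesion molecule, and its call ended without control replicate 1 or any 1 of the 12 h libraries. Cxcl1, a neutrophil chemokine, was at 12.7, 14.05 and 17.6 CPM and 25.7, 20.5 and 24.2 CPM (0.66 ± 0.14, adjusted p = 0.0102), and its call ended without 12 h replicate 1 (0.59 ± 0.15, adjusted p = 0.0584). Among 22 interferon-response genes edgeR called 0, with 3 at an unadjusted p under 0.05 and 0 called by DESeq2 and by limma-voom.

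Fbln5, an elastic fibre protein, was at 105, 85.1 and 80.1 CPM in the controls and 42.2, 46.1 and 48.2 CPM at 12 h, a 1.98-fold fall (-0.98 ± 0.12, adjusted p = 0.000434). Sfrp4, a secreted Wnt antagonist, fell 2.36-fold (-1.24 ± 0.18, adjusted p = 0.00155), and Ccdc80, a matrix-bound protein, 1.84-fold (-0.88 ± 0.15, adjusted p = 0.00614). Scara5, a ferritin receptor, and Serpinf1, a secreted neurotrophic serpin, fell 1.76-fold and 1.71-fold, and Aspn, a small matrix proteoglycan, 1.92-fold. All of these but Sfrp4 were chosen by their values. No 12 h library of these genes reached a control. In replicate 1 of 6 h, which carried heart transcripts, Fbln5 was at 35.5 CPM beside 40.9 and 49.1 CPM in replicates 2 and 3, and Scara5 at 30.8 CPM beside 34.5 and 39.8 CPM. With the heart-transcript term the calls of Fbln5, Scara5 and Serpinf1 held and those of Sfrp4, Ccdc80 and Aspn ended. The part of the heart transcripts in these falls was not tested. Of 25 genes of the matrix list 2 rose and 1 fell (12% called, beside 6.89% of all genes). The median was -0.01, beside -0.01 over all genes. The number that rose was 1 without control replicate 2 or any 1 of the 12 h libraries. The fall ended without control replicate 1 or 2, 6 h replicate 1 or 12 h replicate 1 or 3, and 2 genes fell without 12 h replicate 2. Timp1, an inhibitor of matrix proteases, rose by 0.47 ± 0.08, and Col1a1 and Col3a1 had log2 ratios of 0.14 ± 0.09 and -0.57 ± 0.31 with overlapping groups. Mmp10, a matrix protease, rose (0.97 ± 0.24, adjusted p = 0.0208), a call that ended without control replicate 2 or any 1 of the 12 h libraries (log2 0.87 to 1.03 over the libraries left out). Of 31 genes of autophagy and lysosome 4 fell (12.9%, beside 3.46% of all genes), a number that was 2 without control replicate 1 and 1 without 12 h replicate 1 or 3.

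The lowest ratios named by rule were led by Cth, Casp4, Inhbe and Cyp2c23. Cyp2c23, an arachidonic acid epoxygenase of rat, was at 5.205, 7.13 and 4.52 CPM in the controls and 1.099, 2.36 and 2.39 CPM at 12 h, a 2.896-fold fall (-1.53 ± 0.26, adjusted p = 0.00234). Extl1, a glycosyltransferase, fell 2.41-fold, from 27.3 ± 6.95 to 11.3 ± 1.99 CPM. Trim63, a muscle ubiquitin ligase, was at 1.75, 1.92 and 1.53 CPM and 0.392, 0.913 and 0.597 CPM (-1.44 ± 0.30, adjusted p = 0.00921), a call that ended without 12 h replicate 1 (-1.18 ± 0.32, adjusted p = 0.0696). Since the controls carried heart transcripts and Trim63 is a muscle gene, its level in replicate 1 of 6 h, 0.773, 0.576 and 0.497 CPM in replicates 1 to 3, is given beside it, and the part of those transcripts in the fall was not tested. Among the highest ratios, beside zinc, redox and aldo-keto reductase genes, stood Dmbx1, a homeobox gene, at 0.916, 0.769 and 0.766 CPM and 2.28, 1.52 and 2.05 CPM (1.25 ± 0.29, adjusted p = 0.0164). Its call ended without 12 h replicate 1 (1.11 ± 0.34, adjusted p = 0.104) or 3 (1.21 ± 0.34, adjusted p = 0.0655). Niban1, a stress-induced regulator of translation chosen by its values, fell from 168 ± 16.8 to 96.96 ± 9.91 CPM (-0.79 ± 0.08, adjusted p = 3.25e-05), and Txnip, which binds thioredoxin and was also chosen by its values, fell 1.66-fold (-0.73 ± 0.13, adjusted p = 0.00824).

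Markers of the labelled cell type were present in part. Of 24 olfactory lineage genes 8 were at 0 in every control, among them Cnga2, Gap43, Neurog1, Neurod1, Ncam2, Stmn2 and Rtp1. Another 14 had enough counts to be tested. These included Adcy3, at 23.1, 23.7 and 23.4 CPM in the controls, and Lhx2, at 14.45, 14.64 and 14.64 CPM. Tubb3 was at 18.1, 20.2 and 21.3 CPM in the controls. Omp, the marker of mature olfactory neurons, was at 0.208, 0.384 and 0.383 CPM in the controls and at 0.471, 0.152 and 0.426 CPM at 12 h, near the floor of 3 counts. The summed level of the list was 286 to 306 CPM in the controls and 319 to 322 CPM at 12 h, and came mostly from Eno2 and Ncam1, which other cells express too. Of 14 tested members 2 were higher and 1 lower at 12 h, beside 3.43% and 3.46% of all genes. Among them was Cnga4, a channel subunit (0.86 ± 0.18, adjusted p = 0.0091), a call that ended without 12 h replicate 1 (0.80 ± 0.21, adjusted p = 0.0558). The calls of this list ended without that library. Fibroblast genes, such as collagens, were present in all libraries, with a summed level of 21350 to 25820 CPM in the controls and 20460 to 22410 CPM at 12 h. The summed level of leukocyte markers was 19.9 to 25.6 and 16.6 to 22.4 CPM in these groups, and that of glial markers 59.9 to 75.8 and 55.4 to 73.2 CPM. The leukocyte sum came mostly from Cd14 and Cd68, and Ptprc had no counts in the controls or at 12 h. Skeletal muscle markers summed to 11.9 to 14.1 CPM in the controls and 4.52 to 8.29 CPM at 12 h, with no overlap. Their members Acta1 and Ckm also stand in the heart list and were set aside, so this sum includes heart transcripts. Acta1 was at 7.33, 1.54 and 5.48 CPM in the controls and 0.863, 0.6085 and 0.682 CPM at 12 h. Sustentacular and basal cell markers summed to 16.3 to 18.3 and 14.2 to 15.6 CPM, mostly from Krt8.

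Genes likely to reflect heart muscle transcripts were set aside from the counts of changed genes. A gene was set aside when it stood in a list of heart muscle genes (48 genes), or when its level in replicate 1 of 6 h was at least 0.3 CPM and at least 4 times that in both other 6 h libraries, with the controls as far above (15 genes, 10 of them also in the list). Of the 53, 46 had a higher mean in the controls than at 12 h. For the 15 genes chosen by level, high controls were part of the rule. In all 12 h libraries 14 of the 53 were at 0. These 14 include the 5 that were at 0 in all controls, of which 4 were at 0 in all 9 libraries. Nppa, the atrial natriuretic peptide gene, was at 16.6, 0.140 and 16.3 CPM in the controls and had no counts at 12 h. In replicate 1 of 6 h it was at 0.172 CPM. Mb, also in the heart list, was at 0.125, 2.76 and 0.192 CPM in the controls and at 6.27 CPM in that 6 h library. Myh6, the alpha heavy chain of cardiac myosin, had a mean of 21.98 ± 8.94 CPM in the controls and 0.0568 ± 0.0984 CPM at 12 h, and did not pass given the spread among the 9 libraries (-8.52 ± 2.61, adjusted p = 0.118). Of the 23 tested, 12 were called lower without control replicate 2, 10 without replicate 1 of 6 h and 1 without control replicate 1 or 12 h replicate 1 or 3. With all 9 libraries, Actn2 and Cox6a2 were called lower and Eno3, the muscle enolase, higher (0.54 ± 0.11, adjusted p = 0.0107). Eno3 stood at 141, 123 and 153 CPM in the controls and at 227, 189 and 189 CPM at 12 h, and with the heart-transcript term it was no longer called (0.33 ± 0.19, adjusted p = 0.486).

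Between 6 and 12 h at the same dose, 110 genes differed (1.06% of those tested), 51 higher at 12 h (0.493%) and 59 lower (0.570%). The controls are not part of this contrast, but they entered the filter, the scaling and the estimate of the spread behind its p-values. Hmox1 dropped from 1127, 899 and 870.4 CPM at 6 h to 166, 196 and 194 CPM at 12 h (-2.38 ± 0.11, adjusted p = 1.94e-08), and all 12 h libraries lay under all 6 h libraries. Among the 30 tested NRF2 targets 7 were lower at 12 h than at 6 h, beside 0.570% of all genes. They were Hmox1, Osgin1 (-0.83 ± 0.18), Gclm (-0.73 ± 0.09), Srxn1 (-0.56 ± 0.08), Txnrd1 (-0.50 ± 0.08), Gsr (-0.43 ± 0.09) and Cbr3 (-0.38 ± 0.08). Nqo1 had a difference of -0.01 ± 0.08, Gstp1 of 0.11 ± 0.08 and Fth1 of 0.04 ± 0.08, which did not pass. Hspa8 was lower at 12 h (-0.39 ± 0.07, adjusted p = 0.00785) and so was Zfand2a (-0.59 ± 0.11, adjusted p = 0.0228), the latter lost without 6 h replicate 1 or 3 or 12 h replicate 2.

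ATF4 targets and transfer RNA synthetases were higher at 12 h than at 6 h. Of the 14 synthesis genes 10 were higher at 12 h, and of the 11 transporters 3. Of the 22 regulators 9 were higher and of the 18 synthetases 10, beside 0.493% of all genes. Nars1 is counted in both the regulators and the synthetases. Asns was at 66.6, 62.1 and 68.3 CPM at 6 h and at 137, 125 and 121 CPM at 12 h (0.96 ± 0.11, adjusted p = 0.000423), and no library of the 2 times overlapped. Gpt2, a transaminase that makes alanine, differed by 1.10 ± 0.09 and Trib3 by 1.02 ± 0.18. Cars1, which charges cysteine, was at 141, 151 and 149 CPM at 6 h and 251, 248 and 229 CPM at 12 h (0.73 ± 0.06, adjusted p = 1.71e-05). Atf4 itself was higher by 0.44 ± 0.07, adjusted p = 0.00358. Replicate 1 of 6 h carried heart transcripts and replicates 2 and 3 did not, and their part in these differences was not tested. In the cholesterol list Pmvk was higher at 12 h than at 6 h (0.40 ± 0.08, adjusted p = 0.0286), and in the glycolysis list the glucose transporter gene Slc2a1 was lower (-0.41 ± 0.09, adjusted p = 0.0286). Without 6 h replicate 1, 46 genes differed between the times, and without 12 h replicate 2, 52.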

How the data were processed

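RNA sequencing counts per gene were analysed for 9 libraries, 3 each of control, 6 h and 12 h at 100 µM. The authors deposited whole-number read counts without normalization. Per the submitters' processing notes, the genome build was rn4 and the tools were TopHat, CASAVA 1.8, bcl2fastq and DESeq, listed with no roles. Not given in the sources used here are the read counter, its gene annotation, whether strand was used and how reads with several matches were handled.

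Identifiers were matched to symbols of RefSeq assembly GRCr8 (16671 of 16832 matched), used for names and promoters only. The test was edgeR's quasi-likelihood test (R 4.3.3, edgeR 4.0.16, TMM scaling, filterByExpr, robust estimation, Benjamini-Hochberg adjustment, threshold 0.05) with group as the only factor, tested on simulated data. The SE is the log2 ratio divided by the root of the F statistic. The other 6 libraries stayed out because those labelled 24 h and 200 µM matched in pairs (chi-square per degree of freedom 1.36 to 1.42, against 3.5 or more within groups). Alternatives were DESeq2 1.42.0, limma-voom (limma 3.58.1), other scalings, filters and library sets, thinning to the smallest library total, a replicate block, a heart-transcript term and each library left out.

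The genes, the 44 gene lists, which include the marker lists, and the rule for naming genes were chosen with earlier results of these data known. The rule names the 10 highest and 10 lowest ratios (adjusted p under 0.05, mean of at least 20 counts, no overlap), up to 5 called members of each list, and a fixed set. Genes described as chosen by their values fall outside this rule. Same-numbered libraries of control and 12 h correlated across genes at 0.199, 0.336 and -0.060, and differently numbered ones at -0.381 to 0.244. The labels name no pairs, so the numbers were not read as pairs, and these values do not settle whether they are. Floors cover counting error only. Some genes are not reported here.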

Additional observations from a re-analysis of the deposited data

Results flagged for a closer look

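Among the named genes, 22 changed between 6 and 12 h at 100 µM by edgeR's quasi-likelihood test, so that their change against control differed between the times. Changes are log2 ratios of 12 h over 6 h. The genes that were higher at 12 h were mostly ATF4 targets and transfer RNA synthetases. The synthesis genes were Asns (0.96), Psph (0.55), Aldh1l2 (0.49) and Phgdh (0.42), with the mitochondrial carboxykinase Pck2 (0.83) beside them. The transporters were Slc7a5 (0.58), Slc6a9 (0.52) and Slc1a5 (0.42), and the effectors were Chac1 (0.76), Vldlr (0.64), Sesn2 (0.56) and Herpud1 (0.51). The synthetases were Cars1 (0.73), Nars1 (0.57), Lars1 (0.51) and Eprs1 (0.49). Mt2A (0.49) and Phf10 (0.43), a chromatin remodelling subunit chosen by its values, were also higher at 12 h.

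The genes that were lower at 12 h than at 6 h were Hmox1 (-2.38), Cxcl1 (-0.62), Zfand2a (-0.59) and Slc48a1 (-0.38). Adjusted p-values of the 22 ran from 1.94e-08 for Hmox1 to 0.0416 for Cxcl1. For Slc48a1, Cxcl1, Phgdh, Mt2A, Zfand2a, Herpud1, Slc1a5 and Eprs1 the call ended in at least 1 fit without a library of 6 or 12 h. No group of 4 or more libraries was available, so outlying single libraries were not tested for.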

How the results depend on the processing

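The 710 genes that changed at 12 h kept their direction in every fit without the heart-transcript term in which they were tested (710 of 710 in most, 705 of 705 after thinning, 688 of 688 with at least 50 counts in 3 libraries), and 706 of 710 kept it with the term. Their number stayed within 1.5 times with DESeq2 (848), limma-voom (683), DESeq2 size factors (720), unscaled totals (775), no filter (746), the higher filter (713), all 15 libraries (657), the 6 libraries compared (622) and thinning to the smallest library total (688). With 1 control or 12 h library left out 263 to 721 genes changed, and over all libraries left out 122 to 356 were higher and 141 to 375 lower. The counts were lowest without replicate 1 of 12 h. The heart-transcript term left 51 genes, 32 higher and 19 lower, and the cause was not tested. A log2 ratio of at least 1 left 45, 23 higher and 22 lower. With the replicate number as a block 1304 genes changed, 650 higher and 654 lower, and 271 between 6 and 12 h. The labels do not say whether the numbers pair the libraries. Between 6 and 12 h DESeq2 called 196 genes and limma-voom 97 in place of 110, both chosen after seeing the data, and 46 to 102 were called with 1 library left out. Of 152 named genes that were called, 28 held in all settings, 89 with each control or 12 h library left out and 30 with the heart-transcript term. Fos turned from -0.034 to 0.045 with the heart-transcript term and ran from -0.18 to 0.13 with 1 library left out (0.13 without control replicate 2, 0.047 without 12 h replicate 1), and Ntrk2 turned from 0.61 to -0.0059 with the term. The depth of the 12 h libraries sets the floor at 0.228 to 0.255 CPM, so changes among genes near it were not detectable.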

Other observations

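Further gene groups are given here as values, beside 6.89% of all genes called. Of 13 genes of foreign compound metabolism 2 rose and 1 fell, and Cyp1b1, a cytochrome that oxidises steroids and aromatic compounds, was at 25.6, 23.03 and 22.1 CPM in the controls and 30.3, 34.2 and 37.1 CPM at 12 h (0.52 ± 0.10, adjusted p = 0.00583). All its 12 h libraries lay above the controls. Of 20 selenoprotein and glutathione genes 3 rose and 2 fell. Prdx3, the mitochondrial peroxiredoxin, was lower (-0.40 ± 0.09, adjusted p = 0.0165), which was not called when control replicate 1 was left out (-0.28 ± 0.08, adjusted p = 0.0601), nor when replicate 1 or 3 of 12 h was. Of 26 growth factor and signalling genes 2 rose and 2 fell. Tgfa, an EGF receptor ligand, was at 134, 120.5 and 142 CPM and 198, 165 and 186 CPM (0.47 ± 0.11, adjusted p = 0.0196), a call that ended without control replicate 1 or 2 or 12 h replicate 1 or 3 (log2 0.41 to 0.54 over the libraries left out).

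Of 53 respiratory chain genes 2 rose (3.77%, beside 3.43% of all genes higher and 6.89% called either way), and 41 had ratios above 0. Of 26 S phase genes 1 rose and 1 fell (7.69%, near the share of all genes), the latter Tyms, thymidylate synthase (-0.33 ± 0.07, adjusted p = 0.00859), which ended without 12 h replicate 1 or 2. Of 16 genes of cholesterol uptake and control 3 rose and 2 fell, and of 7 mitochondrial chaperones 1 fell. Without 12 h replicate 1 the calls of the selenoprotein, growth factor, respiratory chain and S phase lists ended, as did the fall among genes of foreign compound metabolism, and in the list of cholesterol uptake 1 gene rose and 1 fell. Leaving out each other control or 12 h library also moved at least 1 of these counts. Hadhb, a subunit of mitochondrial fatty acid oxidation chosen by its values, fell from 444 ± 35.6 to 299 ± 11.1 CPM (-0.57 ± 0.07, adjusted p = 0.000234), and Ttc39b, a regulator of cholesterol export also chosen by its values, fell 1.59-fold (-0.67 ± 0.08, adjusted p = 0.000224). Summed levels of endothelial markers were 29.0 to 31.9 CPM in the controls and 33.8 to 36.9 CPM at 12 h. This sum came mostly from Egfl7, at 29.1, 27.2 and 29.85 CPM in the controls and 36.0, 33.0 and 32.65 CPM at 12 h. Pecam1 was at 0.0833 CPM or less in these libraries. Summed levels of smooth muscle markers were 310.0 to 363 and 347 to 415 CPM.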
